A study of Rattus norvegicus with 56 samples.

Results

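The solute carriers, whose rat gene symbols start with Slc and a number, are the membrane proteins that move nutrients, ions, metals and metabolites into and out of cells and organelles. The genes described here were all those with 1 symbol of that form in the array's probe-to-gene table, without Slc2a1, Slc2a4 and Slc25a1. There were 225 of them among the 10411 named genes of the array, measured by 277 probe sets. The 39 genes with more than 1 probe set were each represented by the probe set with the highest mean signal over the 24 individual rats. They were sorted by gene family into 14 classes, the largest being 36 carriers of inorganic ions, 33 of amino acids, 29 mitochondrial carriers of the Slc25 family and 21 carriers of organic ions and bile acids. The symbol rule also took in Slc7a6os, a gene named for lying on the strand opposite Slc7a6, and Slc4a1ap, an adaptor protein, neither of which is a carrier. Sorting by family placed the creatine carrier Slc6a8 and the proline carrier Slc6a20a with the vesicular and neurotransmitter carriers, and the vitamin carrier Slc5a6 with the sugar carriers.

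RNA came from the whole mammary gland of female rats of the Wistar Furth inbred strain. One group of 12 rats received what the labels name RXR treatment and the other 12 were controls; RXR usually stands for the retinoid X receptor, and its compound, dose and duration are unstated there. The labels put 6 RXR rats and 9 control rats in diestrus, a stage of the estrous cycle, and the other 6 RXR and 3 control rats in estrus, proestrus or one of these, joined here as outside diestrus. Each rat had an array of its own, and labelled targets of these rats were also mixed in pools of 2 (6 and 6), of 3 (4 and 4) and of 12 (1 and 1, each on 4 arrays). Rats are the replicates; pools hold the targets of the same rats and are no independent sample. For repeat arrays of the pools of 12, the source field says individual while title and description say pool, and the last were followed.

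Carriers of the plasma membrane take up amino acids, sugars, phosphate and zinc for milk in the epithelium and fuel in fat cells. The Slc25 family sits in the inner membrane of the mitochondrion, with a few members elsewhere, and exchanges phosphate, adenine nucleotides, dicarboxylic acids and amino acids between the mitochondrial matrix and the cytosol. The Slc30 family moves zinc out of the cytosol and the Slc39 family moves it in, and Slc35 carriers bring sugar nucleotides into the Golgi and endoplasmic reticulum. The mammary gland of a rat that is not nursing is mostly fat tissue with a branching epithelium within it.

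Values are log2 signals as deposited, and a difference of 1 is a doubling of signal. All arrays had nearly the same centre, with medians between 7.40 and 7.48. The gland's defining markers were present, and several cell type lists moved with the treatment. Of 11 luminal epithelial markers measured, 8 were lower in RXR rats and none was called higher. The mean of the list ranged from 9.48 to 10.1 in RXR rats and from 9.83 to 10.2 in controls. Areg, not called, was higher on average by 0.91 and had the largest SDs of the list, 0.918 in RXR rats and 1.27 in controls. How far Areg sets the list mean, used below as a covariate, was not tested. Of 7 adipocyte markers, 5 were higher and 1 lower, with list means of 10.5 to 11.3 and 10.3 to 11.2. Of 7 milk and secretory markers 3 were lower (9.89 to 12.2 and 10.2 to 12.3), of 6 basal epithelial markers 1 was higher and 2 lower (9.22 to 9.95 and 9.41 to 10.1), and of 5 endothelial markers 1 was lower (7.41 to 8.02 and 7.53 to 8.32). Of 4 macrophage markers 1 was higher and 1 lower (8.62 to 8.93 and 8.71 to 8.96), and of 8 skeletal muscle markers 1 was higher (5.51 to 5.78 and 5.47 to 5.73). None of 6 brown adipocyte (6.29 to 6.57 and 6.25 to 6.50), 5 lymphocyte (6.51 to 6.75 and 6.53 to 6.70), 7 fibroblast (11.6 to 12.4 and 11.02 to 12.3), 4 erythrocyte (8.22 to 9.23 and 8.13 to 8.79) or 3 skin markers (6.34 to 10.5 and 6.25 to 7.88) passed the test. Slc4a1, the anion exchanger of red cells, is both a member and an erythrocyte marker. In a whole gland, fewer cells of a type and less RNA per cell cannot be told apart. The part of these lists in the results below was not tested. The fits below with luminal and adipocyte means as covariates cannot decide it, since these means themselves differed with treatment, by -0.24 and 0.37. A call that ended in such a fit is therefore no measure of the share of a cell type.

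Promoter sequence is shown for some of the members that changed. The RefSeq table of rat promoters (assembly GRCr8) held 191 of the 225 members, and the 250 bases before each start were searched on both strands for 4 motifs. Slc25a10, the mitochondrial dicarboxylate carrier and the largest rise among the members, is shown with the whole stretch, and 3 risers and 1 faller with the E-box CACGTG are shown around that motif, in capitals.
Slc25a10, upstream of its start, plus strand of chr10:106264146-106264395: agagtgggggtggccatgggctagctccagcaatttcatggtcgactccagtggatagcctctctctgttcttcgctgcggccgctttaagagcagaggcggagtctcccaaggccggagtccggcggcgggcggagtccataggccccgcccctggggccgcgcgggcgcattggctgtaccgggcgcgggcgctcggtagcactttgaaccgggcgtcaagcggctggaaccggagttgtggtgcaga
Slc16a1, plus strand of chr2:194812419-194812474: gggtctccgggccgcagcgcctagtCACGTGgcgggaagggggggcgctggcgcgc
Slc5a6, plus strand of chr6:31040186-31040241: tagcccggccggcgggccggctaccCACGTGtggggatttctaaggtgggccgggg
Slc25a33, minus strand of chr5:165503004-165503059: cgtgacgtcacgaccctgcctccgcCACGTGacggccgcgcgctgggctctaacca
Slc41a3, plus strand of chr4:124684743-124684798: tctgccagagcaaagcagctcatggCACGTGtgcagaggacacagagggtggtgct
The upstream stretch of Slc25a10 holds 66.8% G and C, against a median of 59.6% over the members and over the 8630 promoters of named genes. The palindrome CACGTG stood in 22 of 191 member promoters (11.5%), in 3 of 25 members that rose (12%), in 1 of 16 that fell (6.25%) and in 7.89% of the promoters of all named genes. The NRF1 motif, read as GCGCA, any base and GCGC, is a sequence common in promoters of genes for mitochondrial proteins. It stood in 5.24% of member promoters and 8.25% of all, and in none of 27 Slc25 promoters. Among called members it stood in 1 of 25 that rose (4%), Slc7a10, and in 1 of 16 that fell (6.25%), Slc30a4, neither shown. The amino acid response motif TGATGNAA was found in 2.62% of members and 1.99% of all. The direct repeat of AGGTCA with any 1 base between, to which pairs of RXR can bind, was found in no member promoter and in 0.0116% of all. The promoters of Slc30a5 and Slc49a4 each held a pair of different motifs, which overlapped in Slc49a4 and not in Slc30a5. A match describes letters in this window only.

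Members were called in both directions. Over the 24 rats, 27 of the 225 members were higher in RXR rats (12%), 18 were lower (8%) and 180 did not pass limma's test at an adjusted p under 0.05. The background on this array was high: 9.81% of all named genes were called higher and 10.4% lower, 20.2% in either direction against 20% of members. The median difference was 0.00 over the members and -0.00 over all genes. Among the rises, 9 were above 0.5 log2, and among the falls 1 was past -0.5 log2. In 2 members, Slc37a4 and Slc48a1, every RXR rat lay above every control rat, and in no member did every RXR rat lie below; over all genes these shares were 0.471% and 0.192%. With the luminal marker mean of each rat as a covariate, 19 members were called higher and 11 lower. With the adipocyte mean the counts were 21 and 14, and with both 22 and 15. No share over all genes is given for these fits, here or below, so their counts cannot be set against the whole array. The choice of probe set mattered in 10 genes: 6 genes called on the probe set used had another that was not called, and 4 genes not called had another that was.

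**Figure D1:**
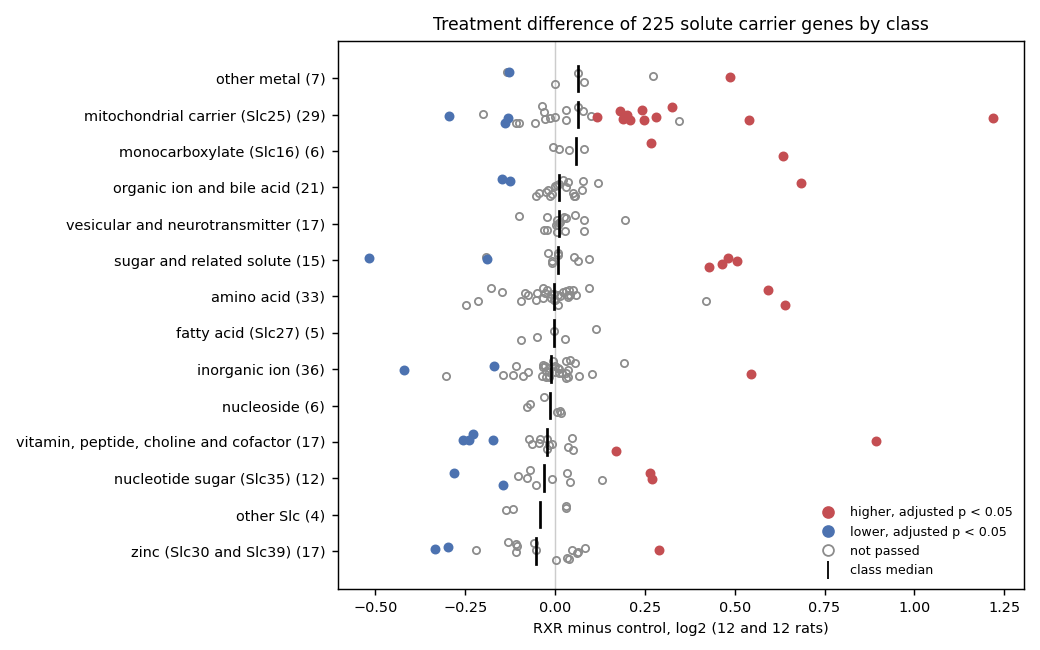
Difference between RXR and control rats (log2, horizontal axis) of each of the 225 solute carrier genes, 1 point a gene, in 14 classes ordered by class median (vertical bars); filled points passed limma's test at an adjusted p under 0.05. The mitochondrial carriers hold 11 of the 27 filled points on the right, led by Slc25a10 at 1.22, and class medians lie between -0.05 and 0.06.

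The mitochondrial carriers were the class with the most members called. Of 29 Slc25 genes, 11 were higher, 3 lower and 15 not passed, 48.3% called in either direction, with a median difference of 0.06. Slc25a10 exchanges malate and succinate for phosphate across the inner membrane and is abundant in white fat. Its signal had a lowest, median and highest value of 9.06, 9.48 and 10.40 in control rats and 9.84, 10.88 and 11.50 in RXR rats. The groups overlapped between 9.84 and 10.40, and all 12 RXR rats lay above the control mean. The difference was 1.22 ± 0.17 (SE, adjusted p = 1.89e-05, limma), a 2.33-fold higher signal. It was 1.12 in diestrus (adjusted p = 0.00289) and 1.37 outside it (0.0248). With both marker means as covariates it was 0.75 (0.00146), 1 of the 5 Slc25 genes then called higher beside 1 called lower.

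The other rising mitochondrial carriers moved by far less. Slc25a35, an inner membrane carrier with no settled substrate, ranged from 6.96, 7.33 and 7.85 in controls (lowest, median, highest) to 7.22, 7.92 and 8.60 in RXR rats, a difference of 0.54 ± 0.13 (adjusted p = 0.0055). Its groups overlapped over most of the control range, and with both marker means it was 0.13 (adjusted p = 0.498), which ended the call. Slc25a39, needed for glutathione in mitochondria, was tight in controls at 9.76, 9.83 and 9.94 and reached 9.88, 10.12 and 10.36 in RXR rats, a difference of 0.28 ± 0.04 (adjusted p = 3.43e-05). Of the RXR rats, 1 fell within the control range of Slc25a39 and 11 lay above it. Its difference with both marker means was 0.17 (adjusted p = 0.00801). Slc25a33, a pyrimidine nucleotide carrier whose E-box is printed above, had 6.13, 6.25 and 6.45 in controls and 6.37, 6.49 and 6.74 in RXR rats and rose by 0.25 ± 0.04 (adjusted p = 0.000122). Slc25a44, which carries branched-chain amino acids into mitochondria, rose by 0.33 ± 0.06, and Slc25a17, a cofactor carrier of the peroxisome, by 0.24 ± 0.05. Slc25a22, a glutamate carrier, rose by 0.19 ± 0.05. Slc25a25, which exchanges adenine nucleotides with phosphate, rose by 0.18 ± 0.06 and Slc25a21, which carries oxodicarboxylates, by 0.12 ± 0.04, with adjusted p of 0.0438 and 0.0453. The mean signals of Slc25a25 and Slc25a21 lay below the 25th percentile of probe sets. With the luminal mean, the adipocyte mean or both as covariates, none of Slc25a44, Slc25a17, Slc25a22, Slc25a25 and Slc25a21 was called higher.

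The carriers that serve oxidative phosphorylation most directly had small differences. Slc25a3, which brings phosphate into the matrix, had 11.72, 11.85 and 12.04 in controls and 11.95, 12.11 and 12.17 in RXR rats, and rose by 0.21 ± 0.04 (adjusted p = 0.000312). Slc25a5, an exchanger of ADP and ATP, rose by 0.20 ± 0.05 (adjusted p = 0.00542). The difference of its close relative Slc25a4, the exchanger most abundant in heart and muscle, was -0.06 ± 0.10 (adjusted p = 0.788), with 7 RXR rats above the control mean and 5 below; with both marker means it was 0.27 (0.0629). The sequences of Slc25a4 and Slc25a5 are alike, and how far their probe sets cross-hybridise was not tested. The differences of Slc25a3 and Slc25a5 with both marker means as covariates were 0.22 (adjusted p = 0.0052) and 0.27 (0.00754), as large as without them.

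Of the genes with an Slc25 symbol that fell, Slc25a36, a pyrimidine nucleotide carrier like Slc25a33, had the largest difference. It had 9.30, 9.86 and 10.18 in control rats and 9.21, 9.46 and 9.97 in RXR rats, groups that overlapped over most of their ranges. It fell by 0.29 ± 0.10 (SE, adjusted p = 0.0324) and 11 of 12 RXR rats were below the control mean. Leaving out 1 rat ended the call in 10 of 24 cases (adjusted p from 0.00901 to 0.0627), as did stage as a covariate (0.0682) and the exact rank-sum test (0.075). With both marker means its difference was -0.52 (adjusted p = 0.00321). Slc25a45 had a difference of -0.14 ± 0.04 (adjusted p = 0.0117) and Slc25a12, an aspartate and glutamate carrier, one of -0.13 ± 0.04 (0.033). Slc25a45 had -0.11 with both marker means (adjusted p = 0.126) and was not called. Slc25a12 was not called lower with the luminal mean, the adipocyte mean or both. The other aspartate and glutamate carrier, Slc25a13, was lower on average by -0.20 ± 0.14 but varied widely among controls and did not pass (adjusted p = 0.361), and with both marker means it had 0.29 (0.0818), a turned sign. Slc25a30, at 0.35 ± 0.13, missed the threshold (adjusted p = 0.0577).

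**Figure D2:**
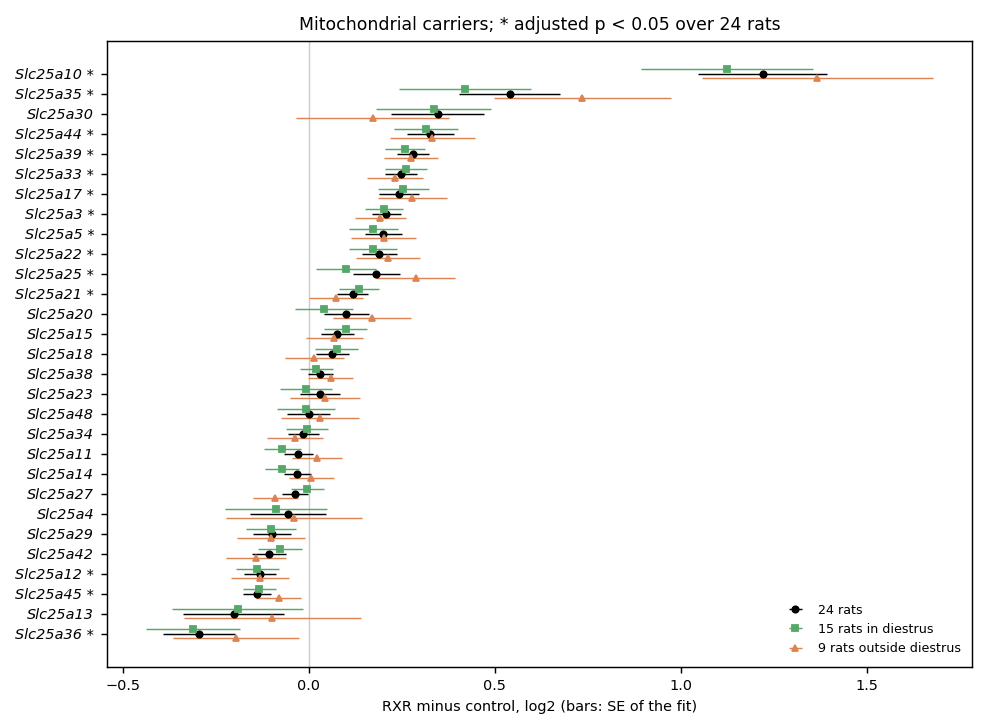
Treatment difference (RXR minus control, log2, with the SE of the fit) of the 29 mitochondrial carriers over 24 rats, over the 15 rats in diestrus and over the 9 rats outside it; asterisks mark an adjusted p under 0.05 over 24 rats. Slc25a10 stands apart at 1.22, 1.12 and 1.37, and the bars outside diestrus are the widest.

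Among the amino acid carriers, 2 of 33 were higher and none was lower (6.06% called), and the median difference was -0.00. Both are exchangers of small neutral amino acids. Slc7a10, which exchanges alanine, serine and cysteine and is known as a surface marker of white adipocytes, had 8.29, 8.53 and 9.37 in controls and 8.76, 9.31 and 9.86 in RXR rats. One group reached into the range of the other, yet all 12 RXR rats lay above the control mean, and the difference was 0.64 ± 0.12 (adjusted p = 0.000361). With the luminal marker mean alone as covariate it was 0.29 (adjusted p = 0.124), which ended the call, and with both means 0.22 (0.0425). Slc1a5, an exchanger with a preference for glutamine, had 9.62, 10.29 and 10.69 in controls and 10.28, 10.93 and 11.32 in RXR rats, and a difference of 0.59 ± 0.14 (adjusted p = 0.00264). All 12 RXR rats of Slc1a5 lay above the control mean, but with both marker means its difference was 0.24 (adjusted p = 0.163) and the call ended.

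The remaining 31 amino acid carriers did not pass. Slc3a2, the heavy chain that several exchangers need to reach the surface, had a difference of -0.18 ± 0.09 (adjusted p = 0.185). With the adipocyte mean as covariate Slc3a2 was called lower at -0.35 (adjusted p = 0.0122), as with both means at -0.34 (0.0258), but not with the luminal mean (-0.31, 0.076). Slc7a7, its partner in the export of cationic amino acids, had 7.22, 7.49 and 8.69 in controls and 7.20, 8.04 and 8.84 in RXR rats. The difference of Slc7a7, 0.42 ± 0.18, was the highest among all members that did not pass (adjusted p = 0.116), and rats of both groups spread over more than 1 log2. Slc7a7 passed without RXR rat 3 or without control rat 10, and with both marker means it was -0.02 (adjusted p = 0.957). Slc1a3, a glutamate carrier, had a difference of -0.05 ± 0.10 on the probe set used (adjusted p = 0.802), while 1 of its 2 other probe sets was higher in RXR rats by 0.19 ± 0.05 (adjusted p = 0.00595). On the probe set used, Slc1a3 was called lower with the adipocyte mean (-0.31, adjusted p = 0.0109) and with both means (-0.29, 0.0298), and not with the luminal mean (-0.23, 0.216).

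Outside the mitochondrial and amino acid carriers, the largest changes were in carriers of heme, organic cations and monocarboxylates. Slc48a1 moves heme from lysosomes to the cytosol. Its signal had a lowest, median and highest value of 8.37, 8.50 and 8.89 in control rats and 8.97, 9.45 and 10.02 in RXR rats, with no overlap. The difference was 0.89 ± 0.09 (adjusted p = 4.38e-07), a 1.86-fold higher signal, and it was 0.91 in diestrus and 0.90 outside it. With both marker means as covariates the difference was 0.54 (adjusted p = 2.38e-05).

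Slc22a3, a carrier of organic cations such as catecholamines, had 6.88, 7.39 and 7.75 in controls and 7.72, 7.96 and 8.68 in RXR rats. The ranges met only between 7.72 and 7.75, and the difference was 0.69 ± 0.11 (adjusted p = 5.12e-05). Of the 21 carriers of organic ions and bile acids 1 was higher and 2 lower; the lower ones were Slc22a17, a receptor for the iron-binding protein lipocalin 2, at -0.12 ± 0.04 (adjusted p = 0.0461), and the orphan carrier Slc22a23 at -0.15 ± 0.05 (0.0468). Both lay near the threshold: leaving out 1 rat ended the call of Slc22a17 in 16 of 24 cases (adjusted p from 0.0249 to 0.0865) and that of Slc22a23 in 18 (0.0173 to 0.086), and with stage as a covariate neither was called (0.0629 and 0.0559). With both marker means Slc22a17 had -0.06 (adjusted p = 0.557) and Slc22a23 -0.25 (0.00944). Slc22a23 had a second probe set at -0.01.

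The monocarboxylate carriers gave 2 rises among 6 and no fall. Slc16a1, which moves lactate, pyruvate and ketone bodies with a proton, had 8.63, 9.29 and 9.77 in controls and 9.32, 9.90 and 10.44 in RXR rats. All 12 RXR rats were above the control mean, and the difference was 0.64 ± 0.12 (adjusted p = 0.000561). It was 0.42 with the luminal mean (adjusted p = 0.0703), 0.46 with the adipocyte mean (0.0289) and 0.40 with both (0.0801), called only with the adipocyte mean. Slc16a7, a carrier of the same substrates, rose by 0.27 ± 0.06 (adjusted p = 0.00246). By mean signal Slc16a7 lay below the 25th percentile of probe sets. In the same 3 fits it had 0.11, 0.18 and 0.11 and was not called (adjusted p = 0.313, 0.0824 and 0.314).

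The class of sugar and related carriers had 4 rises and 2 falls among 15. Slc37a4 carries glucose 6-phosphate into the endoplasmic reticulum and had the smallest p of all members. Controls lay within 9.0, 9.11 and 9.20 and RXR rats within 9.36, 9.61 and 9.84 (lowest, median, highest), so the groups did not overlap, and the difference was 0.48 ± 0.05 (adjusted p = 3.67e-07). With both marker means it was 0.39 (adjusted p = 0.000259). Slc2a5, the fructose carrier, had 7.52, 7.70 and 7.88 in controls and 7.79, 8.20 and 8.64 in RXR rats and rose by 0.51 ± 0.08 (adjusted p = 3.36e-05), with RXR rats more spread out than controls (SD 0.26 against 0.10). Slc5a6, the sodium-driven carrier of biotin, pantothenate and lipoate whose E-box is printed above, had 8.61, 8.96 and 9.38 and 8.94, 9.48 and 9.62, and rose by 0.43 ± 0.08 (adjusted p = 0.000454). Slc2a13, a proton-driven carrier of myo-inositol, rose by 0.46 ± 0.10 on the probe set used (adjusted p = 0.00157), while its other probe set differed by 0.07 (adjusted p = 0.331). With the luminal mean, the adipocyte mean and both, Slc2a13 had 0.11, 0.24 and 0.10, and none of these fits called it (adjusted p = 0.468, 0.107 and 0.5).

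**Figure D3:**
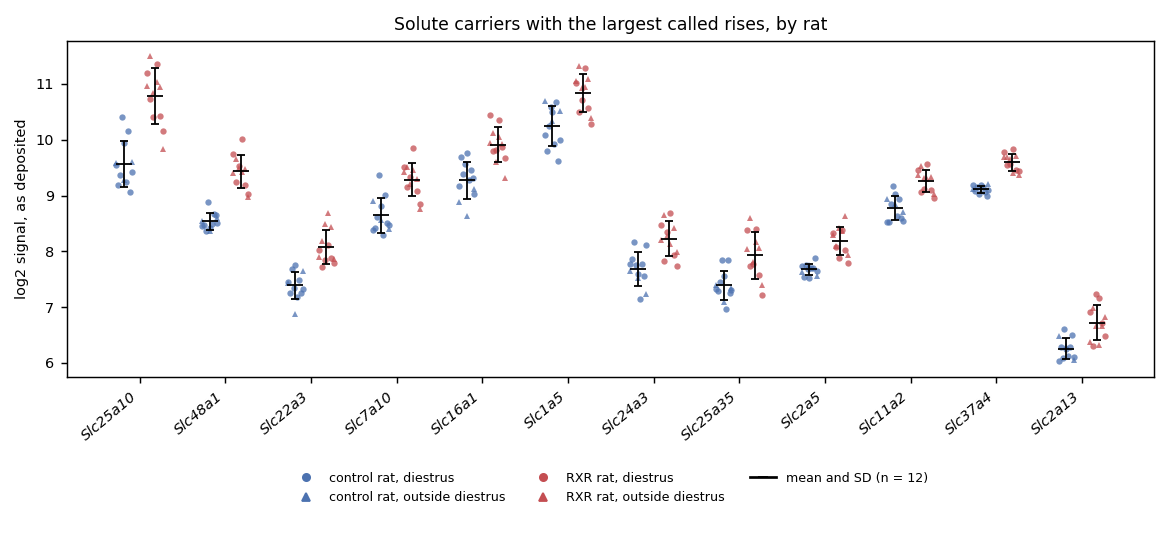
Log2 signal as deposited (vertical axis) of each rat for the 12 largest called rises; circles mark rats in diestrus, triangles rats outside it, and bars the mean and SD of 12 rats. Every RXR rat lies above every control rat for Slc48a1 and Slc37a4; in the other 10 genes the groups share part of their range.

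The falling carriers of this class were Slc45a3 and Slc37a1. Slc45a3, a proposed sugar carrier also called prostein, had the largest fall among all members. Its lowest, median and highest values were 8.59, 9.21 and 9.75 in controls and 8.01, 8.81 and 9.27 in RXR rats, and 11 of 12 RXR rats lay below the control mean. It fell by 0.52 ± 0.14 (SE, adjusted p = 0.00873), and its difference with both marker means was -0.78 (adjusted p = 0.00326). In diestrus its difference was -0.69 (adjusted p = 0.0121) and outside diestrus -0.21 (0.829). Slc37a1, a relative of Slc37a4 that also exchanges glucose 6-phosphate for phosphate, had a difference of -0.19 ± 0.04 (adjusted p = 0.00263), opposite in sign to Slc37a4.

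Among 36 inorganic ion carriers, 1 was higher and 2 were lower, and the median difference was -0.01. Slc34a2 brings phosphate into secretory epithelium with sodium. Its values were 8.98, 9.70 and 10.41 in controls and 8.76, 9.13 and 10.00 in RXR rats, with wide overlap. It fell by 0.42 ± 0.15 (SE, adjusted p = 0.0496), just inside the threshold, and with stage as a covariate the adjusted p was 0.112 and the call ended. Leaving out 1 rat ended it in 18 of 24 cases (adjusted p from 0.014 to 0.0893), and with both marker means the difference was -0.43 (0.169). The pH-regulating sodium and proton exchanger Slc9a8 had 7.91, 8.04 and 8.22 in controls and 7.69, 7.90 and 7.99 in RXR rats; every RXR rat lay below the control mean, and it fell by 0.17 ± 0.03 (SE, adjusted p = 0.000979). Slc24a3, which exchanges sodium for calcium and potassium, had 7.14, 7.70 and 8.17 in controls and 7.73, 8.24 and 8.69 in RXR rats and rose by 0.55 ± 0.12 (adjusted p = 0.00171). Its other probe set differed by 0.10 (adjusted p = 0.137). With the luminal mean, the adipocyte mean and both, Slc24a3 had 0.30, 0.31 and 0.26 and was not called (adjusted p = 0.185, 0.0959 and 0.221). Slc4a4, a sodium bicarbonate carrier, had the lowest difference among members not passed, -0.30 ± 0.11 (adjusted p = 0.0679).

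Zinc carriers were called at a share near that of all genes, 17.6% in either direction against 20.2%. Of 17, 1 was higher, 2 were lower and 14 did not pass, with a median difference of -0.05. Slc30a4 loads zinc into vesicles of the mammary epithelium, and its loss in mice makes milk poor in zinc. It had 8.94, 9.21 and 9.62 in controls and 8.69, 8.90 and 9.31 in RXR rats, 11 of which lay below the control mean, and it fell by 0.30 ± 0.08 (SE, adjusted p = 0.00866). With the luminal marker mean as covariate its difference was -0.12 (adjusted p = 0.474) and the call ended. Slc39a14, an importer of zinc and non-transferrin iron, had 9.59, 9.97 and 10.25 and 9.14, 9.63 and 10.02 and fell by 0.33 ± 0.10 (SE, adjusted p = 0.0171); with the luminal mean its difference was -0.05 (0.806). Slc39a13, a zinc carrier of the secretory pathway, had 8.33, 8.51 and 8.59 in controls and 8.56, 8.78 and 8.94 in RXR rats and rose by 0.29 ± 0.04 (adjusted p = 1.89e-05). Its groups shared only the range from 8.56 to 8.59.

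Of the 7 carriers of other metals, 1 rose and 1 fell. Slc11a2, the proton-driven importer of ferrous iron, had 8.52, 8.77 and 9.17 in controls and 8.95, 9.30 and 9.57 in RXR rats and rose by 0.49 ± 0.08 (adjusted p = 0.000118), while its other probe set differed by 0.01 (adjusted p = 0.939). Slc11a2 had 0.23 with both marker means (adjusted p = 0.0159). Slc41a3, a magnesium carrier, fell by 0.13 ± 0.04 (SE, adjusted p = 0.0158), and with both marker means it had -0.06 (0.389) and was not called. The iron exporter Slc40a1 had a difference of -0.00 on the probe set used, and 1 of its 2 others was higher by 0.24 ± 0.08 (adjusted p = 0.039).

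The vitamin, peptide, choline and cofactor class, which includes Slc48a1, had 2 rises and 4 falls among 17. The other rise was Slc19a1, the reduced folate carrier, at 0.17 ± 0.04 (adjusted p = 0.00338). The 4 falls were 3 choline carrier-like proteins and a peptide carrier. Slc44a1, the choline carrier of the plasma membrane and mitochondria, had 10.04, 10.27 and 10.38 in controls and 9.71, 10.07 and 10.22 in RXR rats, with every RXR rat below the control mean, and fell by 0.24 ± 0.06 (SE, adjusted p = 0.00581). Of its other probe sets, 1 differed by -0.25 (adjusted p = 0.00679) and 1 by -0.02 (0.845). Slc44a4, at -0.26 ± 0.07 (adjusted p = 0.0163), and Slc44a2, at -0.17 ± 0.05 (0.0155), were lower too. Slc15a2, a proton-driven carrier of di- and tripeptides, fell by 0.23 ± 0.07 (SE, adjusted p = 0.0288). With the luminal mean as covariate none of these 4 was called. Slc44a2 was then about as large (-0.19, adjusted p = 0.0581), and it was called with the adipocyte mean (-0.20, 0.0307). Slc44a4 had -0.20 (adjusted p = 0.21), Slc44a1 -0.12 (0.331) and Slc15a2 -0.13 (0.419). Without control rat 12 Slc15a2 was not called (adjusted p = 0.0555).

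The Slc35 class had 2 rises and 2 falls among 12. Slc35b4, a carrier of UDP-xylose and UDP-N-acetylglucosamine, rose by 0.27 ± 0.05 (adjusted p = 0.000326) and Slc35a4 by 0.26 ± 0.06 (0.00184). The pair with both marker means had 0.16 (adjusted p = 0.0422) and 0.28 (0.0101). Slc35f5 had 7.85, 7.95 and 8.17 in controls and 7.50, 7.71 and 7.90 in RXR rats, with every RXR rat below the control mean, and fell by 0.28 ± 0.05 (SE, adjusted p = 0.000255). Slc35a1, which supplies sialic acid to the Golgi, had a difference of -0.14 ± 0.04 (adjusted p = 0.0234). None passed among the 17 vesicular and neurotransmitter carriers, the 6 nucleoside carriers, the 5 fatty acid carriers of the Slc27 family and the 4 others. Their smallest p belonged to Slc6a8, which imports creatine, at 0.19 ± 0.07 (adjusted p = 0.0543), the nucleoside carrier Slc28a1 at -0.07 ± 0.03 (0.144), the fatty acid activating carrier Slc27a4 at -0.10 ± 0.04 (0.122) and Slc66a2 at -0.12 ± 0.06 (0.235). Slc6a8 passed without RXR rat 9 or without control rat 5, 10 or 14, and by the exact rank-sum test (adjusted p = 0.0354), while with both marker means it had 0.01 (0.924). Slc28a1 passed with stage as a covariate (-0.09, limma adjusted p = 0.0463), and Slc27a4 passed without control rat 15 (0.0455). By signal, of 110 members at or above the median probe set signal 21 were higher and 14 lower, and of 115 below it 6 and 4. No share over all genes is given for this split, so the counts cannot be set against the whole array.

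**Figure D4:**
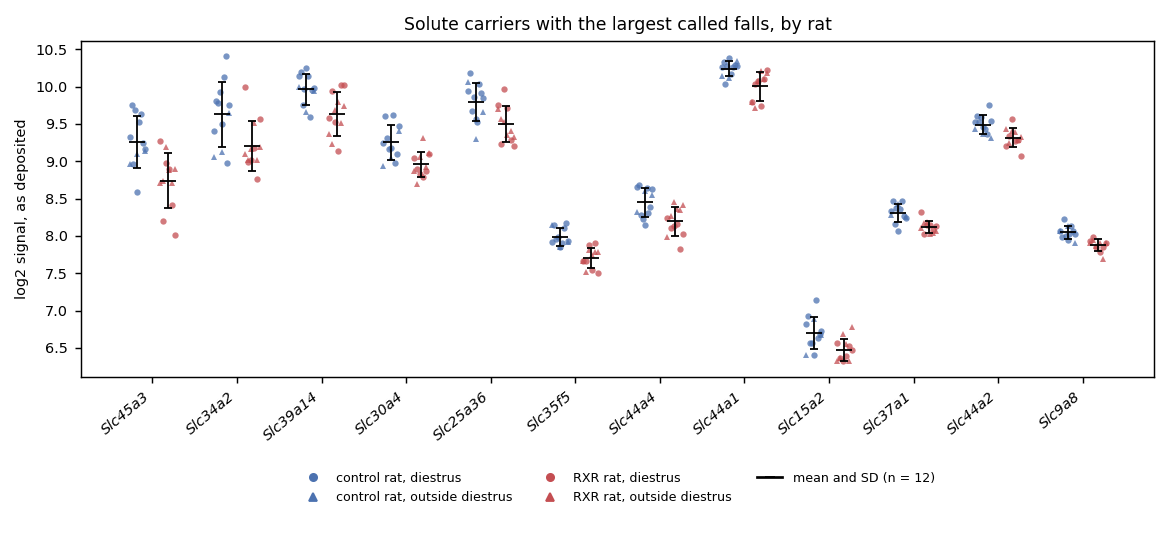
Log2 signal as deposited (vertical axis) of each rat for the 12 largest called falls; circles mark rats in diestrus, triangles rats outside it, and bars the mean and SD of 12 rats. In each of the 12 genes the 2 groups share part of their range, and the mean of RXR rats is lower.

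Stage of the cycle was compared because the groups were unevenly spread over it. No member passed for stage with treatment as a covariate, within RXR rats, within control rats or for the treatment by stage interaction, and 0% of all genes did. At an unadjusted p under 0.05, limma gave 13, 9, 5 and 6 of 225 members, beside 399, 436, 183 and 224 of 10411 genes. The smallest p for stage belonged to Slc39a8, a zinc and manganese importer, which differed by 0.23 outside diestrus against diestrus, and to Slc1a3 (0.25), Slc16a1 (-0.32) and Slc25a45 (-0.10), each with an adjusted p of 0.999. For the interaction they belonged to Slc22a17 (0.25), the glycine carrier Slc6a5 (-0.24), Slc44a2 (0.23) and Slc22a3 (0.46), each with an adjusted p of 1. Only 3 control rats were outside diestrus, which limits each of these tests but the one within RXR rats.

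The treatment contrast was then read within stages. In diestrus (6 and 9 rats) 20 members were higher and 9 lower, where all genes had 5.52% and 5.86%. Outside diestrus (6 and 3 rats) 9 were higher and none lower, where all genes had 1.89% and 0.355%. The 9 were Slc25a10, Slc25a39, Slc48a1, Slc37a4, Slc22a3, Slc16a1, Slc2a5, Slc24a3 and Slc39a13. Without control rat 3 or without control rat 10 the count outside diestrus was 0; without control rat 8 or RXR rat 11 it was 5, and without RXR rat 3 it was 14. Slc22a3 differed by 0.48 in diestrus (adjusted p = 0.0149) and by 0.94 outside it (0.00873), a gap whose interaction did not pass. Slc16a1 differed by 0.58 and 0.95; its control rats averaged 9.41 in diestrus and 8.88 outside it, and its RXR rats 9.99 and 9.83. Slc44a2 differed by -0.24 in diestrus (adjusted p = 0.011) and by -0.02 outside it (0.982).

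The pools repeat the contrast on other arrays of the same rats' targets. Pools of 2 gave 26 members higher and 8 lower (all genes 6.02% and 3.91%), and pools of 3 gave 13 and 4 (3.76% and 3.38%). Leaving out 1 pool of 3 at a time gave 6 to 14 higher and 2 to 5 lower, with the lowest counts without RXR pool 2 (6 and 2) and control pool 4 (8 and 2). Leaving out 1 pool of 2 at a time gave 19 to 25 higher and 2 to 10 lower; the 2 were without control pool 2 or control pool 4. Slc25a10 had 11.09, 11.03, 10.53 and 10.47 in the RXR pools of 3 and 9.75, 10.04, 9.77 and 9.56 in the control pools, and its pools did not overlap. Its difference was 1 in pools of 3 and 1.09 in pools of 2. Slc48a1 had 9.55, 9.61, 9.30 and 9.27 against 8.79, 8.67, 8.57 and 8.66, a difference of 0.76. Slc37a4 had 9.65, 9.68, 9.56 and 9.46 against 9.13, 9.0, 9.22 and 9.15, a difference of 0.46. For both genes every RXR pool lay above every control pool. No share of all genes without overlap between pools is given, so the separations of these genes cannot be set against the whole array.

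The pools are given beside the rats for the falls too. Slc34a2 had 9.36, 9.23, 9.10 and 9.12 in the RXR pools of 3 and 9.58, 9.91, 10.14 and 9.63 in the control pools, a difference of -0.61 (adjusted p = 0.00969), and in pools of 2 it differed by -0.37 (0.143). Slc30a4 differed by -0.33 in pools of 2 (adjusted p = 0.015) and -0.24 in pools of 3 (0.0684). Slc9a8 differed by -0.08 (adjusted p = 0.511) and 0.01 (0.988), and so was lower on average in pools of 2 but not in pools of 3. Slc35f5 differed by -0.12 (adjusted p = 0.501) and -0.21 (0.113). The pools of 12, with no test, had 10 members more than 0.5 log2 higher in the RXR pool and none lower (all genes 2.29% and 0.471%), Slc25a10 at 1.09 and Slc48a1 at 0.94 leading. The third repeat array of the control pool of 12 stood apart from the first, with a correlation of 0.0801 between their deviations from the mean of the 24 rats where the other repeats of these pools had 0.565 to 0.82; leaving out 1 array at a time gave 9 to 12 members past 0.5 log2.

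**Figure D5:**
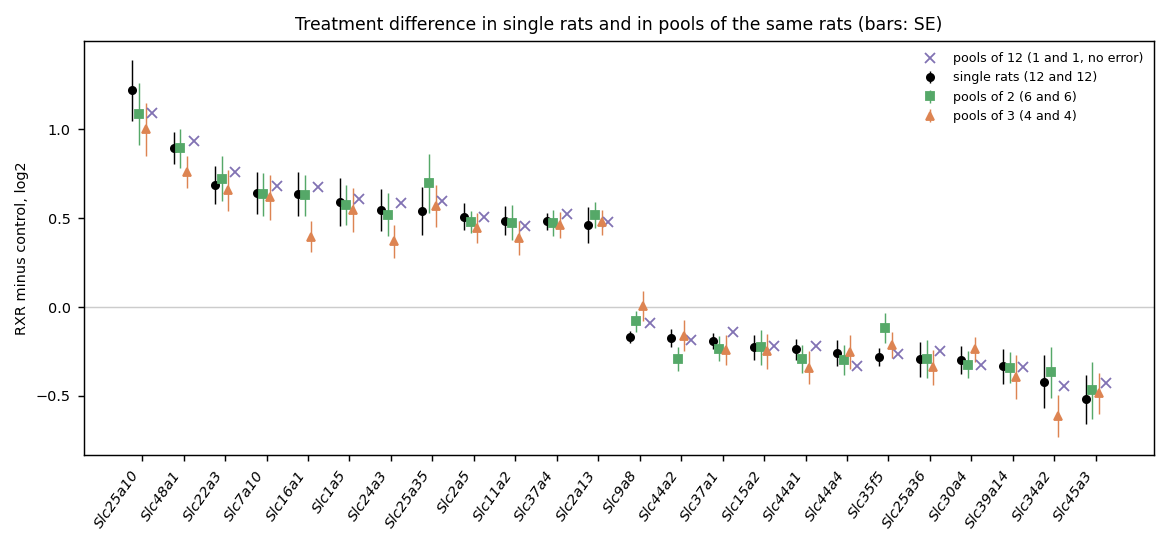
Treatment difference (RXR minus control, log2) of the 12 largest called rises and 12 largest called falls in single rats, pools of 2, pools of 3 and pools of 12; bars are the SE of the fit, and pools of 12 have none. Rises lie above 0 in all 4 kinds of array, and among the falls Slc9a8 reaches 0.01 in pools of 3.

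Members differed in how much they varied between untreated rats. The largest SDs over 12 control rats were those of Slc34a2 (0.435), Slc7a7 (0.421), Slc25a10 (0.41), Slc25a13 (0.369) and Slc1a5 (0.361). The SDs between repeat arrays of the same target were 0.116, 0.107, 0.104, 0.155 and 0.0962 for these genes, which were picked for their large control SDs. Over the family, 46 of 225 members (20.4%) had a control SD more than 2 times the repeat SD, as did 21% of all named genes. Slc25a5, Slc25a3, Slc25a4, Slc1a5 and Slc3a2 had the highest mean signals, a statement on their probe sets and not on transcript numbers.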

How the data were processed

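Total RNA of each gland (5 µg) was made into labelled cRNA, and pools combined equal amounts of targets to 10 µg, per the labels. The authors deposited a table of 15923 probe sets with 1 value on each array. Their log2 unit was inferred from the values, 4.12 to 14.08, which pass the highest natural log a 16-bit scanner can give, 11.1. Which software and normalization made them is not given in the sources used here. The deposited log2 values were used unchanged. The labels give no batch.

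Leaving out 57 control probe sets left 15866, all of them tested: 12783 had 1 gene symbol in the platform annotation, 312 several and 2771 were unlisted, and 12748 matched RefSeq rat genes (GRCr8) by Entrez ID. No symbol of a member changed. Treatment over 24 rats (1 array each), pools of 2 and pools of 3 were fitted with limma (lmFit, eBayes), and stage and interaction in a model with 4 means, with Benjamini-Hochberg adjustment over all probe sets, two-sided, threshold 0.05. On simulated data for 15866 probe sets the test of 24 rats found 96% of changes of 0.5 log2 and 100% of 1 log2 (5.31% of calls false), pools of 2 found 84% and 97% (3.72%), and pools of 3 found 67% and 95% (4.14%). The simulation changed few of the probe sets and gave pools the spread of single rats. Its rates may not hold for the real data. The number of arrays limits the precision.

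Members named were the 12 largest called rises and 12 largest called falls, the called members with the 3 smallest p in each class or, without calls, its smallest p, the 4 smallest p for stage and for interaction, the 5 largest control SDs, the 5 highest means and, in lists of related genes, the 3 smallest p. Slc4a4, Slc7a6os, Slc4a1ap, Slc6a20a, Slc25a30, Slc40a1, Ucp2, Sfxn3, the remaining called members and the promoters shown were chosen after their values or labels were seen. The members and all lists were chosen with earlier results of these data known. Alternatives covered centring, quantile normalization, dim probe sets, prior, weights, stage, rat number, repeat arrays, a rank-sum test, probe set choice, the threshold and leaving out each array; marker means as covariates and a fit without block on the shared rat numbers were added after seeing the data. Fits used limma 3.58.1 in R 4.3.3, and tables and plots numpy 2.4.6, pandas 2.3.3 and matplotlib 3.10.9 in Python 3.11.15.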

Additional observations from a re-analysis of the deposited data

Results flagged for a closer look

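Among the 24 members with the largest rises and falls, 168 groups of 4 to 10 samples were searched for a sample far from the rest, and 4 were found. The limit used picks out about 1 such group in 20 by chance. Slc48a1 was lowest among the RXR rats outside diestrus in rat 3, at 8.97, where the next rat had 9.41. Slc34a2 was highest among the RXR rats outside diestrus in rat 14, at 9.51, with the next at 9.19. Slc9a8 was lowest among the same rats in rat 2, at 7.69, with the next at 7.87, and lowest among the control pools of 2 in pool 3, at 7.74, with the next at 7.95.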

How the results depend on the processing

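The 24-rat counts of 27 members higher and 18 lower ranged from 25 to 29 and from 13 to 20 when 1 rat was left out, and those of the Slc25 class from 9 to 11 and from 1 to 3. Counts were 29 and 19 after quantile normalization and 26 and 15 by an exact rank-sum test. At a threshold of 0.01, 6 members and 0 Slc25 genes were lower. The luminal marker mean as covariate left 11 members lower, and with it, the adipocyte mean or both the Slc25 counts were 5 higher and 1 lower. For the 10 rat numbers that both groups use, rats of the same number had correlations of deviations from -0.389 to 0.358. No correlation of rats with different numbers is given beside these, so whether the numbers pair rats was not tested. With the replicate block over these numbers, 26 members were higher and 17 lower, and 25 and 15 without it on the same rats. Array weights gave 22 members lower in diestrus, 14 in pools of 2 and 12 in pools of 3, and median centring gave 2 lower in pools of 3; the cause was not tested. Leaving out 1 array gave 14 to 23 higher and 6 to 13 lower in diestrus, 0 to 14 and 0 to 0 outside diestrus, 19 to 25 and 2 to 10 in pools of 2, 6 to 14 and 2 to 5 in pools of 3, 9 to 12 and 0 to 0 in pools of 12, 45 to 52 members for the spread, and 0 to 0 in every stage test. Signs turned only in members not called. Slc6a5 (0.01) was -0.013 with the block and on the same rats without it, between -0.0155 and 0.0236 when 1 rat was left out, -0.0192 with the luminal mean and -0.0054 with both means. Slc25a4 was 0.033 with the block and without it, 0.24 with the luminal mean, 0.20 with the adipocyte mean and 0.27 with both. Slc25a13 was 0.24, 0.18 and 0.29 in these 3 fits. Slc7a7 was -0.0785 with the adipocyte mean and -0.0206 with both, and Slc1a3 was 0.0711 as the mean of its probe sets. The 49 members named include some that were not called over the 24 rats. Of those called, 17 kept their sign and lost their call with the luminal mean. Dim probe sets bound what the array can show: 51 members had a mean below the 25th percentile of probe sets. Of the 45 called, 3 were among them, Slc16a7, Slc25a21 and Slc25a25. No share over all genes is given beside this count.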

Other observations

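Other genes that share the members' work were read over the same 24 rats. Among 11 other mitochondrial carriers outside the Slc25 names, 5 were higher and 2 lower, with a median difference of 0.15. The 2 lower were Ucp2 at -0.59 ± 0.10 (SE, limma adjusted p = 0.000107) and Sfxn3 at -0.31 ± 0.04 (1.32e-05). Mpc1 and Mpc2, the subunits of the pyruvate carrier, rose by 1.46 ± 0.16 and 1.24 ± 0.13 (SE, n = 12 and 12 rats, limma adjusted p = 1.18e-06 and 7.07e-07), and Mtch2, an outer membrane insertase, by 0.63 ± 0.08. Of 25 genes of mitochondrial import and the voltage channel, 10 were higher and none lower, with a median of 0.11. They included the import subunits Timm8b at 0.62 ± 0.09, Timm17a at 0.36 ± 0.05 and Timm50 at 0.23 ± 0.05. Over all named genes 9.81% were higher and 10.4% lower.

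Of 12 genes of the amino acid stress response 4 were higher and none lower, among them the serine synthesis enzymes Phgdh (0.63 ± 0.11) and Psat1 (0.56 ± 0.11) and asparagine synthetase Asns (0.30 ± 0.09). Of 13 genes of amino acid sensing by mTORC1, 2 were higher and 1 lower, Rheb (0.13 ± 0.03), Lamtor3 (0.13 ± 0.04) and Tsc1 (-0.19 ± 0.06). Of 14 sodium or calcium pumps none was higher and 3 were lower, Atp2c1 (-0.33 ± 0.06) and Atp2c2 (-0.43 ± 0.10), which load calcium into the Golgi, and Atp2a2 (-0.15 ± 0.05). Of 24 ABC transporters 3 were higher and 2 lower, with Abcd2, a carrier of very long fatty acids into peroxisomes, at 1.05 ± 0.19, the cholesterol exporter Abcg1 at -0.38 ± 0.10 and Abcg5 at -0.20 ± 0.06. The glycerol channel Aqp7 rose by 1.10 ± 0.14 (adjusted p = 6.04e-06), the 1 of 10 aquaporins called. None of 12 organic anion transporters of the Slco family was called, with Slco1a4 at 0.08, Slco6b1 at 0.05 and Slco1a6 at 0.02, and none of 4 zinc binding and sensing genes, with Mt1 at 0.04, Mt2A at 0.22 and Mtf1 at 0.01.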
